A study of Mus musculus with 15 samples.

Results

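The proteasome genes were taken as the 48 of 34714 genes in an aorta RNA-seq table whose symbol is Psm, a letter from a to g and a number. They encode the 20S core (Psma and Psmb), the 19S cap (Psmc and Psmd), the activators (Psme), an inhibitor (Psmf1) and assembly chaperones (Psmg). Of the 48, 46 passed the filter on low values, which asked for 1 or more in 5 or more libraries. The other two were Psma8, a core subunit of testis, which reached at most 0.186, and Psmb11, the core subunit of thymic cortical epithelium, which reached at most 0.0164. The members lie on 16 chromosomes.

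The libraries came from aortas of mice labelled WT, 5 in each of 3 groups. Sham mice were the controls. AngII mice were infused with angiotensin II, a vasoconstrictor peptide that raises blood pressure, at 750 ng per kg per minute. AngII+RvE1 mice had the same infusion and also intraperitoneal resolvin E1, a lipid mediator of the resolution of inflammation, in daily doses of 2 µg per kg. The labels used here name no strain, age or time of collection, and they do not say that each library is a separate animal, so the p-values rest on sample-to-sample spread that may be technical. The comparisons ask how the proteasome genes of the aorta differ with the infusion, and with resolvin E1 during the infusion.

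The 26S proteasome degrades proteins tagged with ubiquitin. Its barrel, the 20S core, has outer rings of alpha subunits and inner rings of beta subunits, and 3 kinds of beta subunit cut the protein: beta 1 (Psmb6), beta 2 (Psmb7) and beta 5 (Psmb5). Interferon gamma induces replacements for these, namely beta 1i (Psmb9), beta 2i (Psmb10) and beta 5i (Psmb8), and the core that holds them is called the immunoproteasome. It is constitutive in lymphocytes and many other leukocytes and inducible in other cells, and it cuts proteins into peptides for presentation on MHC class I. Psme1 and Psme2 encode the alpha and beta chains of the PA28 activator, a ring that docks on the core and is also induced by interferon gamma. These 5 genes are called inducible here, and the 31 subunits of the standard core and cap are called constitutive (7 alpha, 7 beta, 6 ATPases and 11 non-ATPases).

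Psmb8 and Psmb9 lie inside the MHC on chromosome 17 beside the peptide transporter genes Tap1 and Tap2. On GRCm38.p6 the order is Psmb9 (34182030 to 34187330), Tap1 (34187556 to 34197225), Psmb8 (34198195 to 34201454) and Tap2 (34204479 to 34216321). Psmb9 and Tap1 are read away from each other, with 225 bases between their starts. Psme1 (55578494 to 55581527) and Psme2 (55587440 to 55591101) are neighbours on chromosome 14. Psmb10 is on chromosome 8 from 105935728 to 105938392, and Psmd4, which encodes the ubiquitin receptor Rpn10 of the cap, is on chromosome 3 from 95032688 to 95042614.

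The start regions of 4 members are shown as sequence context: Psmb8 and Psmb9 passed a test below, Psme1 is an inducible gene that did not, and Psmd4 is a constitutive subunit described in detail. No comparison below uses these sequences, and their part in the results was not tested. Each is 280 bases of RefSeq sequence on GRCm38.p6, printed 5′ to 3′ on the gene's strand, with 250 bases before the annotated start and the first 30 transcribed bases. Capitals in Psmb8 mark a match to TTCNNNGAA, the gamma-interferon activated sequence (GAS). Capitals in Psme1 and Psmd4 mark a match on the opposite strand to GAAANNGAAA, the core of the interferon-stimulated response element (ISRE). Capitals in Psmb9 mark the 225 bases between its start and that of Tap1.
Psmb8 (chr17:34197945-34198224, plus strand): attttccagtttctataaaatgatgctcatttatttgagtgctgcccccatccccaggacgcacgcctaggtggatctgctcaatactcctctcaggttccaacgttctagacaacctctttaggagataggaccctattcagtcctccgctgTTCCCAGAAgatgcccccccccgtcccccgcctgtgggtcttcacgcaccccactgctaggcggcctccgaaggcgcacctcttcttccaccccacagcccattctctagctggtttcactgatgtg
Psmb9 (chr17:34187301-34187580, minus strand): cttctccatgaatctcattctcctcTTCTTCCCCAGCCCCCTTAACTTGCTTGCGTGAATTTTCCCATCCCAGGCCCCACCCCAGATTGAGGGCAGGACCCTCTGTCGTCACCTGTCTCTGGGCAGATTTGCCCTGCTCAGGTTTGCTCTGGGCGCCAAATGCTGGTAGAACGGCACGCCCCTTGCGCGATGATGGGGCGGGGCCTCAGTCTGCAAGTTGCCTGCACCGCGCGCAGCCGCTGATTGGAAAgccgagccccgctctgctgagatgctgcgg
Psme1 (chr14:55578244-55578523, plus strand): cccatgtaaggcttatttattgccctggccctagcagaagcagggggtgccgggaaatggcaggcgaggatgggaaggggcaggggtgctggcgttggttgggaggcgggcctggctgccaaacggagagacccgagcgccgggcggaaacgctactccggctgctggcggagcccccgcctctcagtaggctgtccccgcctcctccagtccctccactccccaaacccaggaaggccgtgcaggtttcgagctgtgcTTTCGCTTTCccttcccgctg
Psmd4 (chr3:95042585-95042864, minus strand): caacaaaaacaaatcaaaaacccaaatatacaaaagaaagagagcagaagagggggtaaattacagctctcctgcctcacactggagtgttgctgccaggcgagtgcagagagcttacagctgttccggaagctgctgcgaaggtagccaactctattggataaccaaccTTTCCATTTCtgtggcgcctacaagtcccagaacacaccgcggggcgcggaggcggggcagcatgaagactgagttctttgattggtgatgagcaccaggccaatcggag

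Both motifs were searched on both strands in the same 280 bases of every RefSeq start region. The GAS letters read the same on both strands. They were found in 7.83% of 32851 start regions and in 3 of the 40 members with one, namely Psmb8, Psmd2 and Psmg1. The ISRE core was found in 3.28% of start regions and in 5 of the 40 members, namely Psmb3, Psmd4, Psmd9, Psme1 and Psmg4. The match in Psmb8 begins 97 bases before the start, that in Psmd4 begins 80 bases before it, and that in Psme1 begins at transcribed base 10. A match describes these letters and does not show binding.

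The table holds a single normalised value for each gene in each library. It names no unit, and the values are treated here as FPKM, that is, scaled to gene length and library depth. Scaling to length is an assumption, so an order of levels between genes rests on it. Column sums ran from 385846 to 514281. Read depth cannot be read from such values, and counting error is therefore not given. The tissue label was checked against 12 contractile smooth muscle markers, and all 12 reached a value of 1 in every Sham and AngII+RvE1 library, as did 11 of the 12 in every AngII library. This does not show that a library held aortic wall alone. Over the 15 libraries, sums of 7 cardiac muscle markers ran from 9.37 FPKM in AngII+RvE1 2 to 2138 in AngII 2. Those of 8 adipocyte markers ran from 6939 FPKM in AngII+RvE1 4 to 19287 in Sham 3. The part of such tissue in the results was not tested. In bulk tissue, fewer cells of a type and less RNA per cell cannot be told apart.

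Within AngII, libraries 3, 4 and 5 had the highest leukocyte marker sums. The sum of 15 lymphocyte markers was 16.1, 7.62, 981, 337 and 1508 FPKM in AngII libraries 1 to 5, 4.83 to 79 in Sham and 9.94 to 13.7 in AngII+RvE1. The sum of 14 macrophage markers was 278, 577, 3207, 719.7 and 1339 FPKM in AngII, 244 to 352 in Sham and 281 to 367 in AngII+RvE1. AngII library 2 was thus also above every Sham and AngII+RvE1 library in the macrophage sum. Lyz2 alone gave 1939 FPKM of the sum in AngII 3. None of these 29 markers was at 0 in all libraries. Of the lymphocyte markers, 1 of 15 reached a value of 1 in every Sham library and 2 of 15 in every AngII library. Of the macrophage markers, 11 and 13 of 14 did. Smooth muscle marker sums were 1261 to 3536 FPKM in AngII, below all 5 AngII+RvE1 libraries (5580.1 to 10043), while Sham ran from 1828 to 12589. The log2 differences of the inducible genes that involve AngII are therefore given with and without AngII libraries 3, 4 and 5.

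In AngII against Sham, the immunoproteasome genes Psmb8 and Psmb9 rose, and 0 members fell. The 2 members called higher of 46 tested compare with 2.36% of all 12603 tested genes called higher (and 0.809% called lower), which is close, so the count says little about the family as a whole. At an unadjusted limma p under 0.05 there were 6 members, against 26.2% of all genes. The median log2 difference was 1.01 for the 5 inducible genes and 0.05 for the 31 constitutive subunits, beside 0.11 for all genes tested. No constitutive subunit passed the threshold, with 22 above 0 and 9 below.

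In AngII+RvE1 against AngII, Psmb8 fell, and 0 members rose. The 1 member called lower compares with 4.31% of all genes called lower, which is the larger share, and 4.21% were called higher. At an unadjusted limma p under 0.05 there were 9 members, against 29% of all genes. Medians were -0.75 for the 5 inducible genes, -0.10 for the constitutive subunits and -0.11 for all genes. The AngII libraries enter both comparisons, so a high AngII value makes the one rise and the other fall together, and the values are set side by side without a test of that pattern.

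In AngII+RvE1 against Sham, 0 members were called by limma, against 0.0238% of all genes called in either direction. At an unadjusted p under 0.05 there was 1 member, Psmd10, against 6.69% of all genes. The median of the 5 inducible genes was 0.26 and that of the constitutive subunits 0.02, beside 0.01 for all genes. The inducible genes thus lay between their Sham and AngII means in 4 of 5 cases, and Psme2 lay just under its Sham mean.

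**Figure D1:**
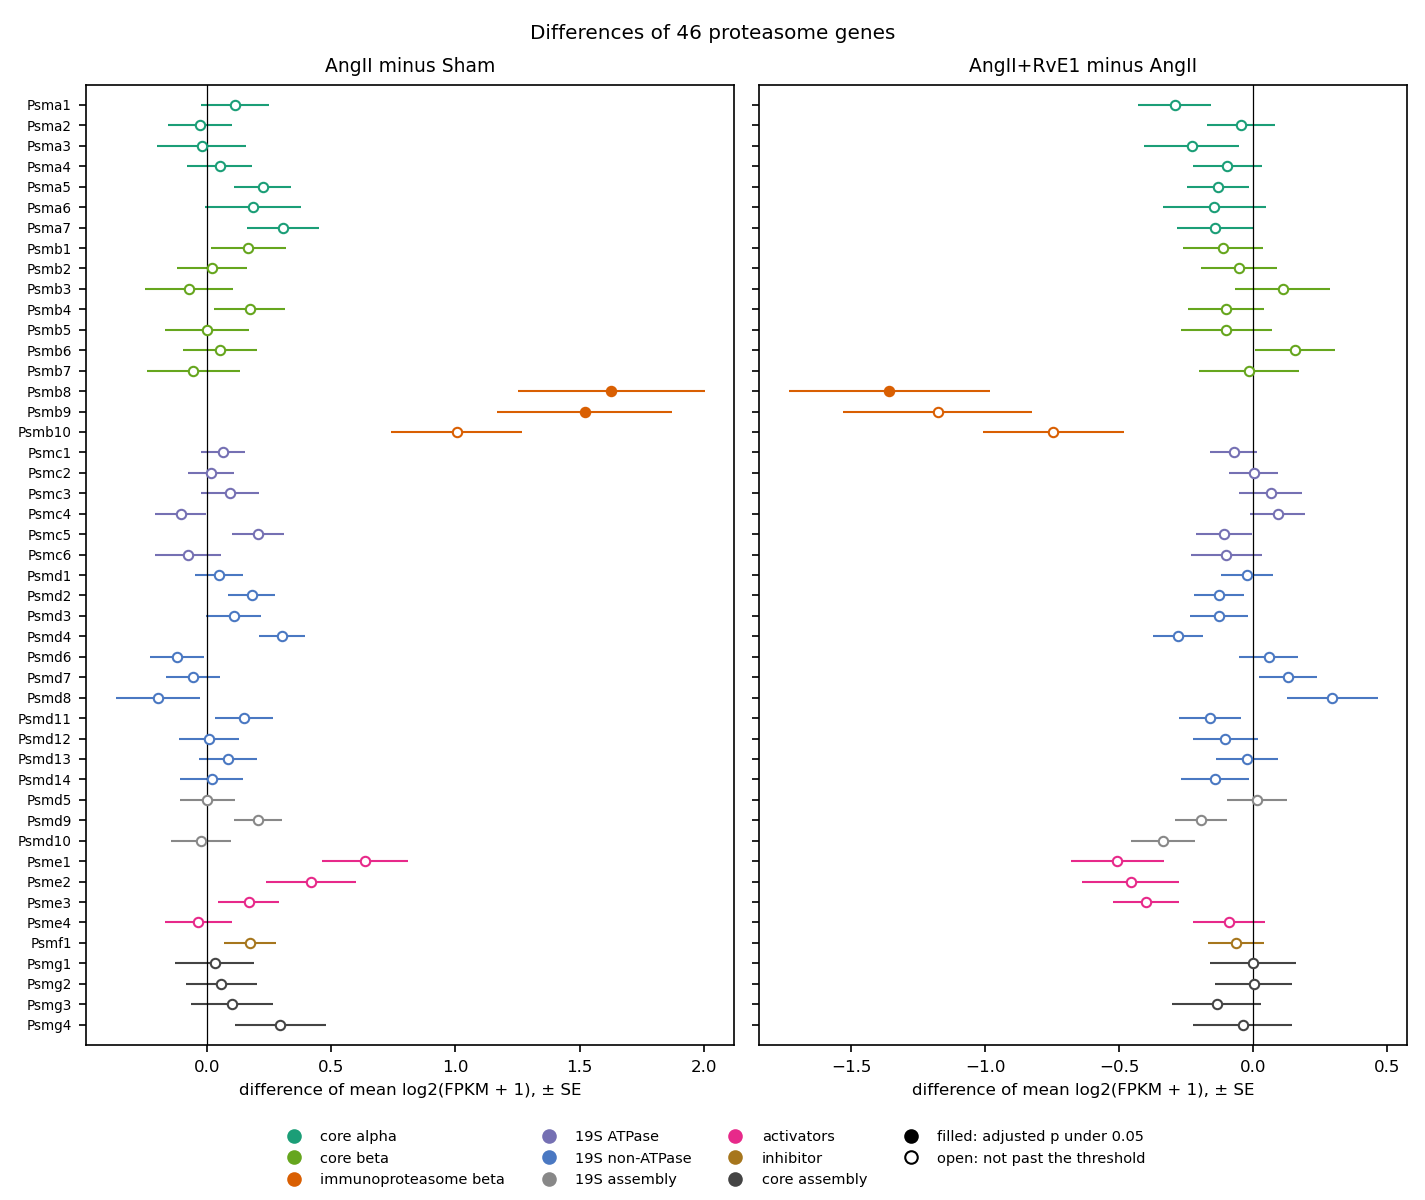
Differences of mean log2(FPKM + 1), with standard errors, for the 46 tested proteasome genes, coloured by role; the left panel is AngII minus Sham and the right panel AngII+RvE1 minus AngII. Filled points passed an adjusted p of 0.05 (Psmb8 and Psmb9 on the left, Psmb8 on the right), and the 3 immunoproteasome subunits lie furthest from 0 in both panels.

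Psmb8, the chymotrypsin-like subunit beta 5i, was 25.7, 14.3, 20.2, 18.8 and 11.9 FPKM in Sham libraries 1 to 5. In AngII it was 25.2, 29.9, 98.4, 64.1 and 118, and in AngII+RvE1 22.3, 19, 16, 19.9 and 33. AngII libraries 3, 4 and 5 were far above every other library, while AngII 1 and 2 lay at the top of the Sham range or just over it, and the groups overlapped. The mean rose from 18.2 ± 5.35 in Sham to 67.1 ± 41 FPKM in AngII (SD, n = 5 each). On the log2 scale this was 1.63 (SE 0.37, limma adjusted p = 0.0347). It fell to 22 ± 6.53 in AngII+RvE1, a difference of -1.36 from AngII (SE 0.37, limma adjusted p = 0.0405). Against Sham the difference of AngII+RvE1 was 0.27 (limma adjusted p = 0.968).

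Psmb9, the subunit beta 1i, was 17.5, 9.74, 16.7, 12.9 and 6.83 FPKM in Sham. In AngII it was 19.7, 19.1, 64.1, 36.2 and 73.5, and in AngII+RvE1 14.6, 13.5, 14.1, 15.6 and 21.2. Every AngII library lay above every Sham library, as for 2.92% of all genes, but AngII 1 and 2 were within 3 FPKM of the highest Sham library. Psmb9 rose by 1.52 on the log2 scale in AngII (SE 0.35, limma adjusted p = 0.0348). In AngII+RvE1 the difference from AngII was -1.18 (SE 0.35), which did not pass (limma adjusted p = 0.0508). The difference from Sham was 0.34 (limma adjusted p = 0.957).

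Psmb10, the subunit beta 2i, lies away from the MHC. It was 24.5, 14.3, 23.1, 18.5 and 13.3 FPKM in Sham, 23.8, 24.4, 59.5, 40.05 and 53.6 in AngII and 23.1, 16, 24.5, 19.5 and 29 in AngII+RvE1. The same 3 AngII libraries were the highest, and AngII 1 and 2 lay inside the Sham range. The log2 difference was 1.01 in AngII (SE 0.26, limma adjusted p = 0.0504), just missing the threshold of 0.05, and -0.75 in AngII+RvE1 against AngII (SE 0.26, limma adjusted p = 0.083).

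Psme1, the alpha chain of PA28, had a higher value than the 3 immunoproteasome subunits in every library, an order that rests on scaling to length. It was 92.9, 89.9, 115, 93.5 and 69.4 FPKM in Sham, 106, 118, 174, 147 and 179 in AngII and 102, 88, 114, 85.4 and 112 in AngII+RvE1. Only AngII libraries 2 to 5 lay above all Sham libraries. The log2 difference was 0.64 in AngII (SE 0.17, limma adjusted p = 0.0563) and -0.51 in AngII+RvE1 against AngII (SE 0.17, limma adjusted p = 0.0761), and neither passed.

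Psme2, the beta chain, was 85.4, 106, 145, 88.5 and 66.6 FPKM in Sham, 123, 115, 133, 127 and 142 in AngII and 90.7, 85.9, 113, 73.5 and 105 in AngII+RvE1. AngII libraries 3, 4 and 5 were higher than 1 and 2 by little here, and Sham 3 was above all 5. Every AngII+RvE1 library lay below every AngII library, as for 5.23% of all genes, and the fitted difference was -0.46 (SE 0.18, limma adjusted p = 0.113). In AngII against Sham it was 0.42 (SE 0.18, limma adjusted p = 0.159). Psme2b, a near copy of Psme2, was listed at 0.388 to 1.61 FPKM, and how reads were divided between the copies is not given in the sources used here. The ratio of Psme1 to Psme2 was 0.966 ± 0.135 in Sham, 1.13 ± 0.182 in AngII and 1.08 ± 0.0624 in AngII+RvE1 (SD, n = 5 each). By library it ran from 0.795 in Sham 3 to 1.31 in AngII 3. It is a ratio of transcript levels, which rests on scaling to length, and not of protein.

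**Figure D2:**
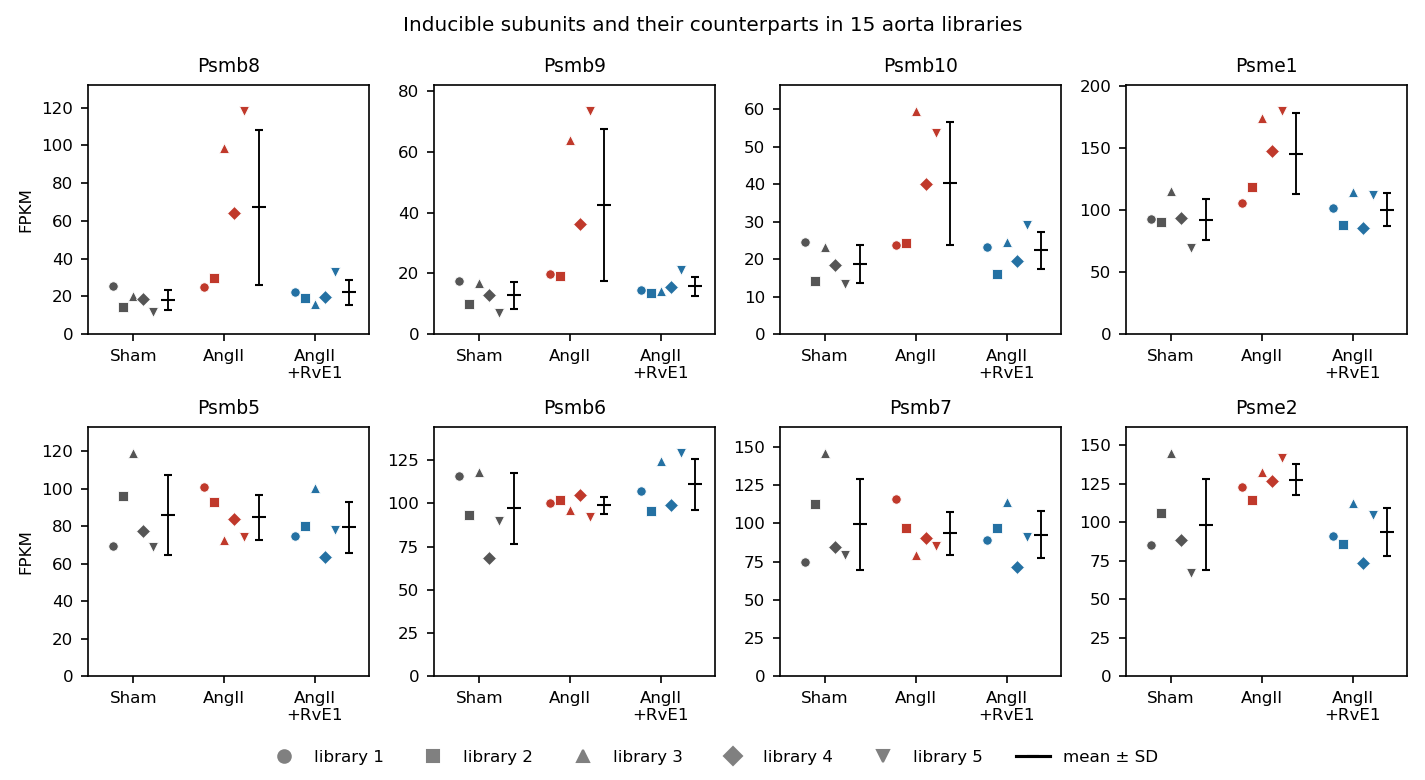
FPKM of the 5 inducible genes and of Psmb5, Psmb6 and Psmb7 in each library (symbols mark libraries 1 to 5 of a group; black bars are mean ± SD, n = 5), with axes from 0. AngII libraries 3, 4 and 5 are the highest points for Psmb8, Psmb9, Psmb10 and Psme1, and not for Psmb5, Psmb6 and Psmb7.

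The calls on Psmb8 and Psmb9 rested on few libraries, and calls over all genes moved in the same runs. In AngII against Sham they went from 298 higher and 102 lower to 20 and 2 without AngII libraries 3, 4 and 5. They were 77 and 23 without Sham 2, 54 and 22 without AngII 4, and 1155 and 171 without AngII 1. In AngII+RvE1 against AngII they went from 531 and 543 to 0 and 6 without AngII 3, 4 and 5. A lost call is therefore not particular to these genes. With AngII libraries 3, 4 and 5 left out, 0 members were called in any comparison by limma, Psmb8 differed by 0.61 from Sham (SE 0.29, limma adjusted p = 0.746) and Psmb9 by 0.64 (SE 0.29, limma adjusted p = 0.736). The AngII+RvE1 difference from AngII was then -0.34 for Psmb8 (limma adjusted p = 0.651) and -0.30 for Psmb9 (limma adjusted p = 0.715). Psmb10 went to 0.39 and -0.13 in the 2 comparisons (limma adjusted p = 0.828 and 0.870), and Psme1 to 0.30 and -0.17 (0.828 and 0.769). Psme2 moved less, to 0.32 and -0.36 (limma adjusted p = 0.848 and 0.604), and the medians of the 5 inducible genes were 0.39 and -0.30. For the rise, Psmb8 lost its call without Sham 2, 4 or 5 (limma adjusted p = 0.0846, 0.0530 and 0.0882), without AngII 3, 4 or 5 (0.0829, 0.0835 and 0.0936) and without AngII+RvE1 4 (0.0504). Psmb9 lost its call without the same 7 libraries (limma adjusted p of 0.0504 to 0.0939). For the fall in AngII+RvE1, Psmb8 lost its call without Sham 2 or 4 (0.0519 and 0.0522), without AngII 3, 4 or 5 (0.0957, 0.0801 and 0.115) and without any 1 of the AngII+RvE1 libraries (0.0629 to 0.0879). Both leukocyte marker sums were highest in AngII 3, 4 and 5, where Psmb8, Psmb9 and Psmb10 were high. Not every marker followed the sums: the macrophage marker Cd163 was 3.26, 5.01, 4.56, 4.54 and 2.8 FPKM in AngII libraries 1 to 5. The part of leukocytes in the result was not tested.

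**Figure D3:**
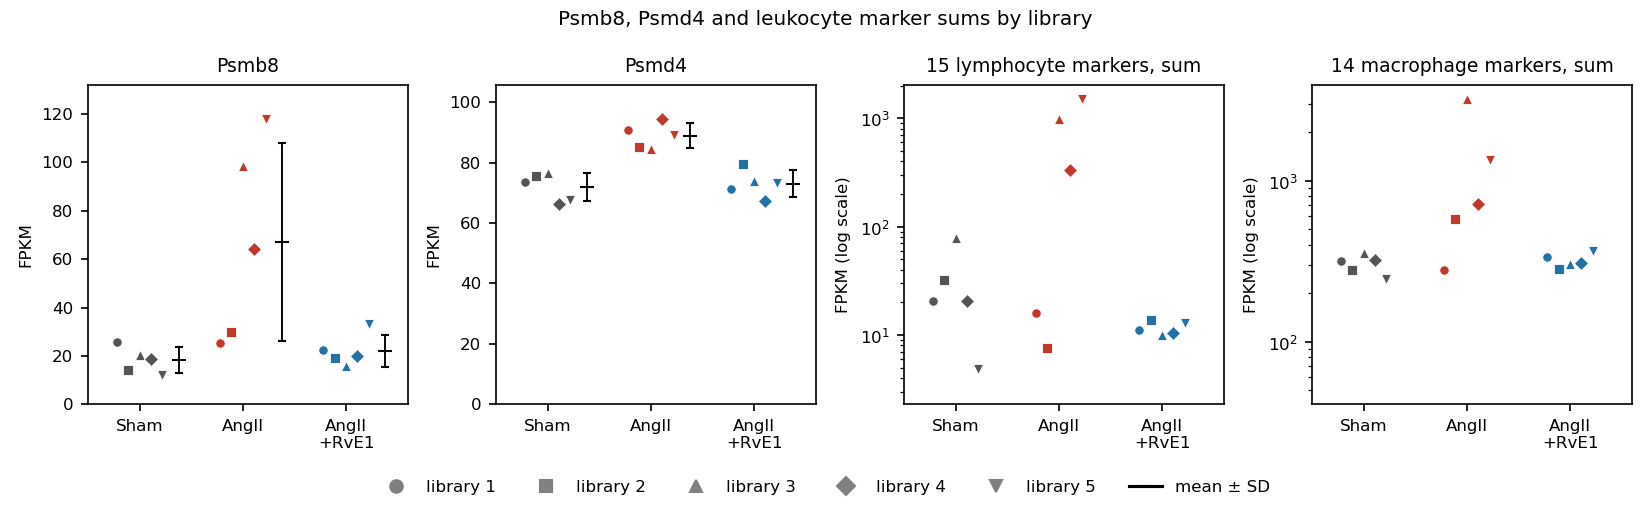
Psmb8 and Psmd4 (FPKM, axes from 0, black bars mean ± SD, n = 5) beside the summed FPKM of 15 lymphocyte and 14 macrophage markers (log axes, no mean drawn), by library. AngII libraries 3, 4 and 5 are the highest for Psmb8 and for both marker sums, while all 5 AngII libraries are alike for Psmd4.

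The constitutive counterparts of the inducible beta subunits differed little between groups. Psmb5, the standard beta 5, was 69.4, 96.2, 119, 77.2 and 68.7 FPKM in Sham, 101, 92.7, 72.6, 83.8 and 74.1 in AngII and 74.8, 80.3, 100.4, 63.3 and 77.8 in AngII+RvE1. Psmb6, the standard beta 1, was 116, 93.1, 118, 68.1 and 89.7, then 100.4, 102, 96, 105 and 91.9, then 107, 95.7, 124, 99 and 129 in the same order. Psmb7, the standard beta 2, was 74.9, 112, 146, 84.2 and 79.5, 116, 97, 79.1, 90.3 and 84.9 and 89, 97.2, 114, 71.5 and 91.2. In all 3 genes the Sham values spanned or nearly spanned those of the other groups. Their log2 differences were 0.00, 0.05 and -0.05 in AngII against Sham and -0.10, 0.16 and -0.02 in AngII+RvE1 against AngII, with standard errors of 0.15 to 0.19.

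The share of an inducible subunit in its sum with the constitutive one that takes the same ring position does not depend on the scaling of a library. The share of Psmb8 in the sum of Psmb8 and Psmb5 was 27, 13, 14.5, 19.6 and 14.8% in Sham. It was 19.98, 24.4, 57.5, 43.3 and 61.4% in AngII and 23, 19.2, 13.7, 23.9 and 29.8% in AngII+RvE1. Psmb8 thus exceeded Psmb5 in AngII libraries 3 and 5 alone among the 15. The share of Psmb9 with Psmb6 was 16.4, 15.8, 40.02, 25.7 and 44.4% in AngII, 7.07 to 16.0% in Sham and 10.2 to 14.1% in AngII+RvE1. The share of Psmb10 with Psmb7 was 17.1, 20.1, 42.9, 30.7 and 38.7% in AngII, 11.3 to 24.7% in Sham and 14.1 to 24.1% in AngII+RvE1. These are shares of transcript level, which rest on scaling to length, and not of protein.

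Differences of log2(FPKM + 1) within a library were compared between groups with an exact permutation test, two-sided, and the 9 tests were adjusted together. Because of the added 1, the scaling of a library does not cancel fully in these differences. For Psmb9 minus Psmb6 the mean was -2.88 ± 0.47 in Sham, -1.41 ± 0.94 in AngII and -2.74 ± 0.20 in AngII+RvE1 (SD, n = 5 each). Every AngII+RvE1 library lay below every AngII library (difference -1.33, exact permutation p = 0.00794, the smallest that 5 against 5 can give, adjusted p = 0.0714), and AngII exceeded Sham by 1.47 (exact permutation p = 0.0159, adjusted p = 0.0714). For Psmb8 minus Psmb5 the mean was -2.20 ± 0.51, -0.57 ± 1.18 and -1.83 ± 0.51. AngII exceeded Sham by 1.63 (exact permutation p = 0.0317, adjusted p = 0.0952), and AngII+RvE1 differed from AngII by -1.26 (exact permutation p = 0.0714, adjusted p = 0.129).

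For Psmb10 minus Psmb7 the mean was -2.34 ± 0.51 in Sham, -1.28 ± 0.80 in AngII and -2.01 ± 0.35 in AngII+RvE1. AngII exceeded Sham by 1.06 (exact permutation p = 0.0556, adjusted p = 0.125), and AngII+RvE1 differed from AngII by -0.73 (exact permutation p = 0.119, adjusted p = 0.179). AngII+RvE1 differed from Sham by 0.13 to 0.37 over the 3 pairs, with exact permutation p of 0.270 to 0.563. None of the 9 tests passed 0.05 after adjustment. With AngII libraries 3, 4 and 5 left out, the AngII excess over Sham was 0.42 for Psmb8, 0.55 for Psmb9 and 0.25 for Psmb10, in a design of 2 against 5 that cannot go below an exact p of 0.0952.

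**Figure D4:**
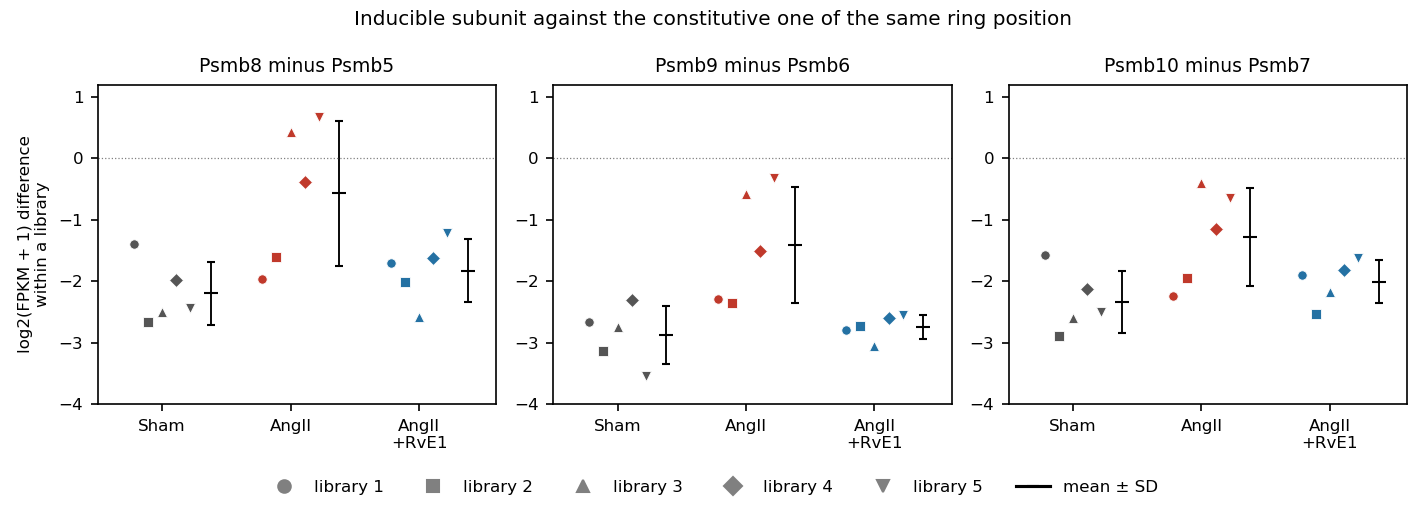
Within-library difference of log2(FPKM + 1) between each immunoproteasome subunit and its constitutive counterpart (symbols mark libraries 1 to 5 of a group; black bars are mean ± SD, n = 5; the dotted line at 0 marks equal levels). AngII libraries 3, 4 and 5 lie nearest to or above 0 in all 3 panels, and for Psmb9 minus Psmb6 every AngII+RvE1 library lies below every AngII library.

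Among the 7 alpha subunits of the core, which form the gated outer rings, the Sham mean ran from 33 FPKM for Psma5 to 106 for Psma6. None passed the threshold in any comparison. The largest AngII difference was that of Psma7, at 0.31 (SE 0.14, limma adjusted p = 0.195). Psma1 differed by -0.29 in AngII+RvE1 against AngII (SE 0.14, limma adjusted p = 0.171), and all 7 alpha subunits were below 0 in that comparison with a median of -0.14, close to the all-gene median of -0.11. Among the 7 standard beta subunits the Sham mean ran from 86.1 for Psmb5 to 175 for Psmb3, a non-catalytic ring member. Their medians were 0.02 and -0.05 in the same comparisons.

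The core subunits varied between Sham libraries more than the cap ATPases did. The median SD of log2(FPKM + 1) over a role was 0.26 for alpha and 0.32 for beta subunits in Sham, 0.12 and 0.13 in AngII, and 0.18 and 0.19 in AngII+RvE1. For the 6 ATPases it was 0.12, 0.10 and 0.10, and for all tested genes it was 0.31, 0.29 and 0.21. Sham 3 was the library with the highest core levels: its alpha and beta subunits lay a median of 0.39 and 0.41 above their means over the 15 libraries, while its ATPases lay at -0.01 and all tested genes at -0.23. Psmb3, for example, was 162, 178, 256, 144 and 134 FPKM in Sham libraries 1 to 5. Sham 3 also had the lowest smooth muscle marker sum of the Sham libraries, with AngII 3 and 5 lower still, and the highest sums among all 15 of 8 adipocyte markers (19287 FPKM) and 6 brown fat markers (7648 FPKM), and their part in this spread was not tested.

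**Figure D5:**
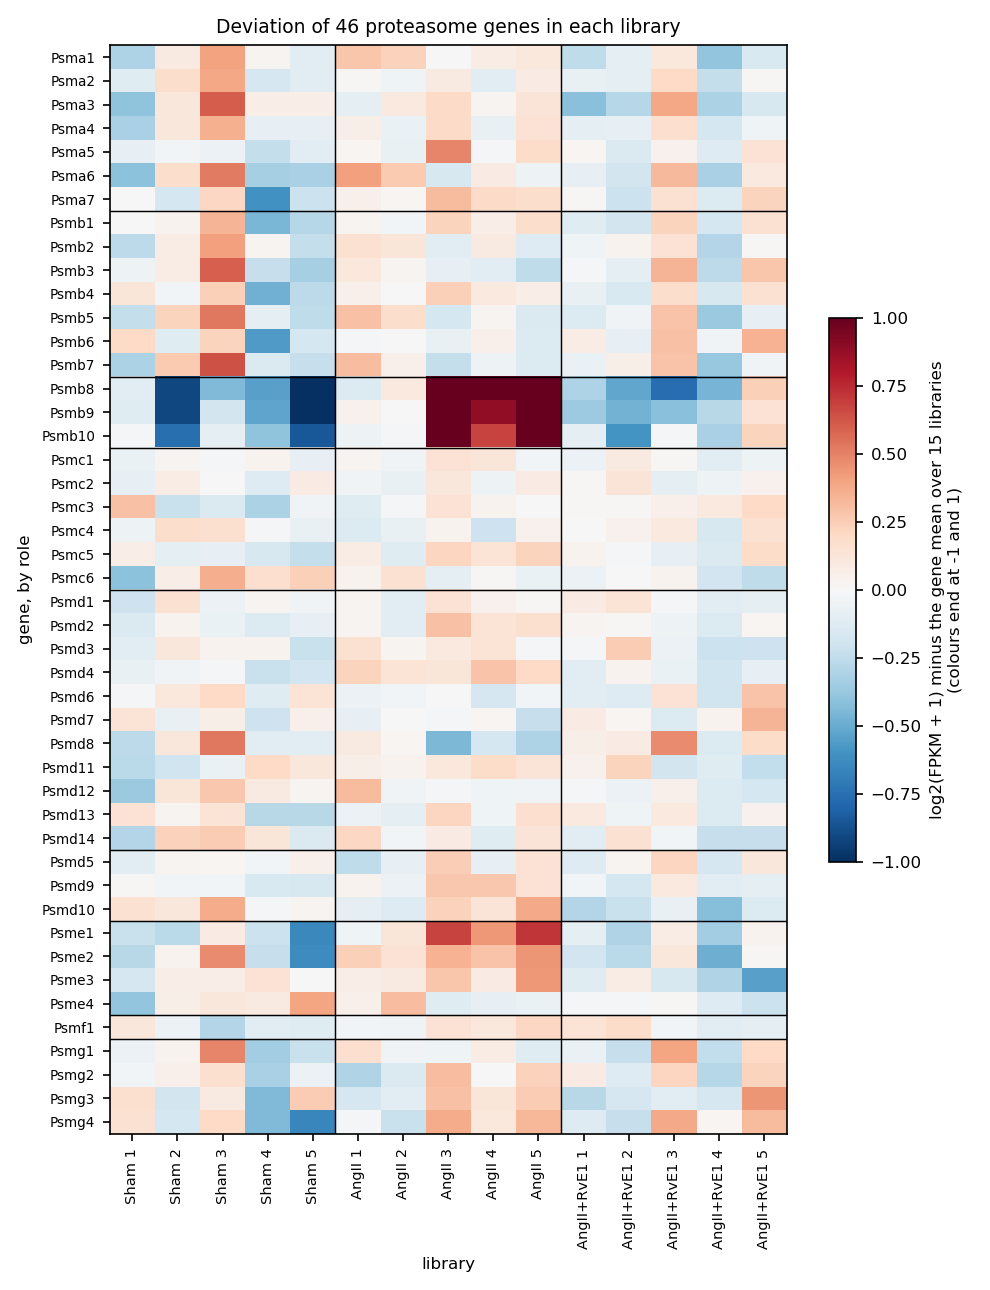
Deviation of log2(FPKM + 1) from each gene's mean over the 15 libraries for the 46 tested proteasome genes, by role (rows) and library (columns); colours end at -1 and 1, so larger deviations share the end colours. The immunoproteasome rows are darkest red in AngII libraries 3, 4 and 5, and most core alpha and beta rows are red in Sham 3 while the ATPase rows stay near white.

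The cap ATPases Psmc1 to Psmc6, which unfold the substrate, varied least of the 5 core and cap roles compared. Their Sham means ran from 41.1 FPKM for Psmc6 to 66.6 for Psmc4, and their AngII differences from -0.11 to 0.21 with a median of 0.04. Of the 11 non-ATPase subunits, Psmd11 had the lowest Sham mean (23.9 FPKM) and Psmd8 the highest (148 FPKM). Psmd8 was also the constitutive subunit with the lowest AngII difference, -0.20, and the highest in AngII+RvE1 against AngII, 0.29, and neither passed (limma adjusted p = 0.488 and 0.265).

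Psmd4 was the 1 of 31 constitutive subunits whose AngII libraries did not overlap those of either other group. Of all genes, 2.92% lay wholly higher in AngII than in Sham and 5.23% wholly lower in AngII+RvE1 than in AngII. In each comparison taken alone, 1 of 31 is near that share. The share of all genes apart in both was not computed, so the count says nothing particular about the family. Psmd4 was 73.5, 75.5, 76.5, 66.2 and 67.6 FPKM in Sham, 90.7, 85.2, 84.4, 94.5 and 89.3 in AngII and 71.3, 79.4, 74, 67.3 and 73.2 in AngII+RvE1. All 5 AngII libraries lay above all Sham and all AngII+RvE1 libraries, and AngII 1 and 2 were as high as 3, 4 and 5. The log2 difference was 0.30 in AngII against Sham (SE 0.09, limma adjusted p = 0.075) and -0.28 in AngII+RvE1 against AngII (SE 0.09, limma adjusted p = 0.0714), so it did not pass in either. Left with AngII libraries 1 and 2 alone, it differed by 0.29 and -0.27 (limma adjusted p = 0.736 and 0.458). Rescaling the libraries by their median ratio to the mean library lowered the differences to 0.17 and -0.18 (limma adjusted p = 0.398 and 0.355).

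The chaperones of cap assembly are Psmd5, Psmd9 and Psmd10. Psmd10, which encodes gankyrin, was 8.73, 8.47, 10.3, 7.62 and 7.92 FPKM in Sham, 7.24, 7.01, 9.26, 8.57 and 10.4 in AngII and 6.16, 6.5, 7.29, 5.5 and 6.95 in AngII+RvE1. Every AngII+RvE1 library was below every Sham library, as for 0.262% of all genes, though AngII libraries 1 and 2 lay among the AngII+RvE1 values. The difference from Sham was -0.36 (SE 0.12, limma adjusted p = 0.632) and that from AngII -0.34 (SE 0.12, limma adjusted p = 0.0872). Without AngII libraries 3, 4 and 5 the latter was -0.12 (limma adjusted p = 0.744). Psmd9 differed by 0.20 in AngII against Sham (limma adjusted p = 0.192) and Psmd5 by 0.00.

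Of the activators outside the inducible pair, Psme3 encodes PA28 gamma, the nuclear form, and Psme4 encodes PA200. Psme3 was 28.3, 33.5, 33.5, 35.5 and 32 FPKM in Sham, 33.6, 34.1, 38.9, 33.8 and 43.5 in AngII and 29.3, 33.7, 28.5, 25.7 and 21.6 in AngII+RvE1. AngII+RvE1 library 2 alone reached the AngII values. The log2 difference from AngII was -0.40 (SE 0.12, limma adjusted p = 0.0548), which missed the threshold, and the AngII difference from Sham was 0.17. Psme4 was 12 ± 2.45, 11.6 ± 1.62 and 10.8 ± 0.777 FPKM in Sham, AngII and AngII+RvE1 (SD, n = 5 each), and the inhibitor gene Psmf1, which encodes PI31, was 6.14 ± 0.72, 7.04 ± 0.596 and 6.7 ± 0.738.

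The core assembly chaperones Psmg1 to Psmg4 build the alpha ring. Their Sham means were 17.7, 11.2, 7.63 and 12.5 FPKM. Their AngII differences from Sham were 0.03, 0.06, 0.10 and 0.30, each under 2 standard errors. Pomp, which guides the beta ring and is not a Psm gene by name, was 92 ± 16.8 FPKM in Sham, 104 ± 15.9 in AngII and 97.7 ± 14.8 in AngII+RvE1.

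Genes that act with the proteasome or control it were taken from a list of 26 tested genes. It includes Nfe2l1, the transcription factor that raises proteasome genes when the proteasome is inhibited, ubiquitin genes and shuttle factors. By limma, 0 of the 26 were called in each of the 3 comparisons, with medians of 0.13, -0.16 and -0.03. All-gene shares called were 2.36% higher and 0.809% lower, then 4.21% and 4.31%, then 0.0238% in either direction. At an unadjusted limma p under 0.05 there were 1, 4 and 2 of the 26, against 26.2%, 29% and 6.69% of all genes. Nfe2l1 was 58.7, 67.2, 60.7, 76.4 and 66.8 FPKM in Sham, 78.7, 65.2, 48.3, 70.8 and 60.1 in AngII and 60.7, 71, 53.4, 52.4 and 48.5 in AngII+RvE1, and the groups overlapped. Its log2 differences were -0.04 and -0.17. Nfe2l2, which encodes the oxidative stress factor NRF2, differed by -0.03 in AngII against Sham and by -0.36 in AngII+RvE1 against AngII (SE 0.13, limma adjusted p = 0.0991).

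The interferon and peptide loading list holds genes of interferon signalling and response, and genes of peptide loading on MHC class I. Some of the former switch on the inducible subunits. Of 26 members, Ciita was under the filter and 25 were tested. The list was chosen with earlier results of these data known, so its counts are descriptive and not an independent test. In AngII against Sham 8 of 25 rose and 0 fell, against 2.36% and 0.809% of all genes, with a median log2 difference of 0.78. In AngII+RvE1 against AngII 7 fell and 0 rose, against 4.31% and 4.21% of all genes, with a median of -0.76. Between AngII+RvE1 and Sham 0 were called, against 0.0238% of all genes. There 1 had an unadjusted limma p under 0.05, against 6.69% of all genes. It was Ube2l6, which was 0.98 higher in AngII+RvE1 than in Sham (limma adjusted p = 0.583). Ube2l6 was also 0.41 higher than in AngII (limma adjusted p = 0.384). In that comparison 2 of the 25 lay above 0 and 23 below, so the list did not move as 1. Leaving out AngII libraries 3, 4 and 5 brought the calls among the 25 to 0 in each comparison. Of all genes, 20 were then called higher and 2 lower in AngII against Sham. In AngII+RvE1 against AngII 0 and 6 were.

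Ifngr1, a chain of the interferon gamma receptor, was 36.9, 29.1, 31.4, 40.9 and 35.3 FPKM in Sham, 52.8, 43.8, 79.7, 59.7 and 70.3 in AngII and 34.9, 35.7, 31.6, 31.2 and 40.1 in AngII+RvE1. It rose by 0.78 and fell by 0.78 (limma adjusted p = 0.0193 and 0.0159), with no overlap between AngII and either other group. Of all genes, 2.92% lay wholly higher in AngII than in Sham and 5.23% wholly lower in AngII+RvE1 than in AngII. Irf1, which binds ISRE sites, differed by 1.05 and -0.79 (limma adjusted p = 0.0504 and 0.0791) and did not pass.

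The neighbours of Psmb8 and Psmb9 in the MHC gave calls like theirs. Tap1, whose start region overlaps that of Psmb9, was 6.31, 4.52, 4.38, 7.06 and 3.4 FPKM in Sham, 8.75, 8.71, 43.4, 23.6 and 46.3 in AngII and 10.5, 6.1, 5.99, 9.04 and 9.84 in AngII+RvE1, with AngII 3, 4 and 5 again far above the rest. Its difference of 1.86 in AngII passed (limma adjusted p = 0.03) and that of -1.26 in AngII+RvE1 did not (limma adjusted p = 0.0646), as for Psmb9. Tap2 rose by 1.05 and fell by 1.02 (limma adjusted p = 0.0374 and 0.0276), as did Psmb8. Nlrc5, the transactivator of MHC class I genes, was 0.855, 1.05, 1.45, 1.96 and 1.07 FPKM in Sham, 2.04, 1.74, 8.24, 4.09 and 8.71 in AngII and 1.69, 1.75, 0.548, 1.73 and 1.41 in AngII+RvE1. Its fall in AngII+RvE1 by 1.13 passed (limma adjusted p = 0.0451), and its AngII difference of 1.21 did not (limma adjusted p = 0.0535).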

How the data were processed

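RNA from 15 mouse aorta libraries was sequenced (SMARTER mRNA-Seq libraries, per the labels' protocols). The authors deposited 1 table of gene symbols with decimal values, treated here as FPKM; the file names no unit, and scaling to gene length is assumed. The build was mm10, per the submitters' processing notes. The aligner, quantifier and annotation were not given in the sources used here. Within a library pair, the most common ratio of low values was shared by at most 1.97% of low genes within 1%, so no whole reads could be recovered.

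The 12603 genes at 1 or more in at least 5 libraries were fitted as log2(FPKM + 1) with limma-trend (limma 3.58.1, R 4.3.3), 1 mean per group and 3 contrasts, two-sided, with Benjamini-Hochberg adjustment over all genes and a threshold of 0.05. The added 1 shrinks differences of low genes. Pair differences were tested in scipy 1.17.1. The code was tested on simulated data.

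Members and lists were chosen with earlier results of these data known. Named were the inducible genes and their counterparts, Psme3, Psme4, Psmf1, Psmg1 to Psmg4, Psma8 and Psmb11, up to 6 further members with the smallest p in each comparison, the highest and lowest Sham mean of a role, and of the 2 further lists 8 set genes and up to 4 called genes. A gene of these lists is not reported here. Psmd5 was added after its values were seen. Alternatives were a rescaling, an added 0.1, no filter, fits of 2 groups, a replicate block, a minimum fold of 1.5 and left-out libraries.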

Additional observations from a re-analysis of the deposited data

Results flagged for a closer look

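In 2 of 138 groups of 5 libraries (1.45%), the highest value of a proteasome gene lay far from the other 4, against about 1 in 20 groups by chance. Gaps were measured as a share of the range on the log2(FPKM + 1) scale, where 0.71 is the critical value. Psmd12, a scaffold subunit of the cap, was 41.8 FPKM in AngII library 1 and 32.3 to 33.1 FPKM in the other AngII libraries, a gap of 0.907. Psmg3, an assembly chaperone, was 10.7 FPKM in AngII+RvE1 library 5 and 6.12 to 7.0 FPKM in the others, a gap of 0.766 on that log2 scale.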

How the results depend on the processing

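The count of 2 members higher in AngII than in Sham became 0 with no filter on low values, with a fit of only those groups, with the replicate block and with AngII libraries 3, 4 and 5 left out, and it ran from 0 to 5 when single libraries were left out (0 without Sham 2, 4 or 5, AngII 3, 4 or 5, or AngII+RvE1 4; 4 without AngII 1 or 2; 5 without Sham 3). An added 0.1 gave 3, the third being Psmb10 (limma adjusted p = 0.0493). The count of 1 member lower in AngII+RvE1 than in AngII became 0 under the same 4 alternatives and ran from 0 to 6 when single libraries were left out (0 without Sham 2 or 4, AngII 3, 4 or 5, or AngII+RvE1 1, 3, 4 or 5; 3 without Sham 1 or 3; 2 without Sham 5; 5 and 6 without AngII 1 and 2; and, without AngII+RvE1 2, Psme3 in place of Psmb8). For Psmb8 the limma adjusted p over the alternatives that kept AngII 3, 4 and 5 together ran from 0.0122 to 0.127 for the rise and from 0.0157 to 0.0879 for the fall. The other counts stayed 0 under every alternative run. Rescaling moved the all-gene median from 0.11 to -0.004 and the calls from 298 higher and 102 lower to 259 and 282 in AngII against Sham, and from 531 and 543 to 819 and 479 in AngII+RvE1 against AngII. The constitutive median went from 0.05 to -0.08 and from -0.10 to 0.002, so it has no direction of its own, while the inducible median was 0.87 and -0.65. Without AngII 3, 4 and 5 the pair difference of Psmb10 and Psmb7 in AngII+RvE1 against AngII turned to 0.0823 (exact permutation p = 0.667), and that of Psmb9 and Psmb6 in AngII+RvE1 against Sham ran from -0.0303 to 0.276 over single libraries left out; the cause was not tested. Of 336 alternative values of the 16 gene differences at an unadjusted p under 0.05, 0 changed sign, while 31 of the other 62 named differences changed sign under at least 1 alternative, and 0 of the 62 were called under any. The replicate numbers gave no sign of pairing in the values. Correlations of same-numbered libraries' deviations ran from -0.414 to 0.521, with 4 of 15 over 0.1, against 25 of 60 for other numbers. Of 15 libraries, 2 correlated best with their own number. Such correlations cannot exclude a pairing in the design. Precision is limited by 5 libraries per group and by unknown read depth.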
